A study of Mus musculus with 26 samples.

Results

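The 10 genes described here encode the liver's main carriers of bile acids and other organic anions: Slc10a1, Slco1a1, Slco1a4, Slco1b2, Abcb11, Abcc2, Abcc3, Abcc4, Slc51a and Slc51b. They were chosen by name, from what the encoded proteins are known to carry, and their transcripts were followed through 26 mouse liver RNA-seq libraries in 8 groups. The tables list 19638 genes in at least 1 library. All 10 carriers were listed, and 9 of them had enough counts to be tested.

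Hepatocytes take bile acids and organic anions out of sinusoidal blood, change or conjugate them, and pump them into the bile canaliculus. Slc10a1 (NTCP) is the sodium-dependent bile acid carrier of the sinusoidal membrane, and Slco1a1, Slco1a4 and Slco1b2 are sodium-independent carriers of the OATP family. Abcb11 (BSEP) is the canalicular bile salt export pump and Abcc2 (MRP2) the canalicular pump for conjugated organic anions. Abcc3 (MRP3), Abcc4 (MRP4) and the Slc51a-Slc51b heterodimer (OST alpha and beta) return such compounds across the basolateral membrane to the blood. The nuclear receptor FXR (Nr1h4), its target SHP (Nr0b2), the receptors CAR (Nr1i3) and PXR (Nr1i2) and the stress-responsive factor NRF2 (Nfe2l2) are known to act on these genes in mouse liver.

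Every animal was labelled C57BL/6. Livers labelled Alb-Cre:Hdac3-/- form 4 groups by the time since sPH: 3 libraries at 0 days (0d), 4 at 7 days (7d), 4 at 21 days (21d) and 3 at 50 days (50d). The labels write sPH out as successive PH, and PH usually abbreviates partial hepatectomy. These mice and the wild type (WT, 3) were 2 to 3 months old. The labels leave unclear whether WT livers had sPH, and do not say whether 0 days lies before or after the operations. Older tissue comprised tumors of recipient Fah-/- mice (3, 12 months), spontaneous tumors of Alb-Cre:Hdac3-/- mice (3, 10 months) and tissue without tumor adjacent to them (3, 10 months). The albumin promoter drives Cre in hepatocytes and in cells descended from albumin-expressing progenitors, so other liver cells keep the histone deacetylase gene Hdac3. Fah is an enzyme of tyrosine breakdown, and the labels do not say what the Fah-/- mice received. The adjacent tissue carries the same genotype label as the Hdac3-/- tumors, and no older wild-type tissue was analysed here.

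Library totals ran from 8602526 to 11094627 counts. Levels are CPM, counts scaled to library size with TMM factors over all libraries, given in order of replicate, and comparisons between genes use the authors' FPKM, which is scaled by gene length. Log2 fold changes (± SE) and adjusted p-values are from edgeR's quasi-likelihood test over all genes, with a threshold of 0.05. The Hdac3 transcript was not lower in libraries labelled Hdac3-/-. It passed the threshold as higher at 0d, with 45.8 ± 3.39 CPM against 33.9 ± 2.51 CPM in WT livers (SD, n = 3 each). A count over the whole gene does not show a deleted exon. The Fah transcript averaged 384.5 ± 108.5 CPM in Fah-/- tumors and 367 ± 103 CPM in Hdac3-/- tumors, against 1003 ± 127.5 CPM in adjacent tissue (SD, n = 3 each). It was thus lower than in adjacent tissue in both kinds of tumor (adjusted p = 0.0239 and 0.0266) and did not differ past the threshold between them (adjusted p = 0.962). Summed CPM of 4 Y-linked genes was 40.9 to 93.1 in each 7d, 21d and 50d library and at most 0.261 in each 0d and WT library, while Xist showed the opposite pattern. Among older libraries, Hdac3-/- tumor replicate 3 (40.9 CPM) and adjacent replicate 2 (27.1 CPM) held Y-linked transcripts, and the Fah-/- tumors did not (at most 0.166 CPM). Thus the comparisons of 7d, 21d or 50d with 0d, and of 50d with WT, also compare libraries with and without Y-linked transcripts. Against 0d, sex and time cannot be told apart, and between 50d and WT, sex, genotype label and time since sPH cannot. The 0d and WT libraries both lacked Y-linked transcripts. The adult beta-globin genes Hbb-bs and Hbb-bt made up at least 99.6% of the adult beta-globin counts in WT livers. Their share was 52.7 to 99.6% at 0d, 0 to 48.1% at 7d, 0 to 0.654% at 21d and 0.164 to 1.115% at 50d. It was 0.286 to 1.18% in adjacent tissue and at most 0.162% in each tumor. The libraries labelled with 1 strain thus differed in beta-globin haplotype, and 0d replicates 1 and 3 (52.7 and 53.9%) differed from WT too. In comparisons of the later days with 0d or WT, haplotype cannot be told apart from time or genotype label. Between 0d and WT only part of the 0d group differed in haplotype, since 0d replicate 2 (99.6%) was near WT. The part of haplotype in that comparison was not tested. Summed hepatocyte markers (10 genes, all above 0 in every library) were 40930 to 50440 CPM at 0d and 155700 to 173600 CPM in WT livers. Scaling by library totals alone shifted the median of all genes by 0.299 (log2) between 0d and WT and put 69.7% of all calls on the higher side, against 2490 of 5082 calls with TMM. In bulk tissue, fewer hepatocytes and less RNA per hepatocyte cannot be told apart.

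The stretches upstream of 4 of the genes are shown as examples, from 2 exporters that were higher and 2 uptake carriers that were lower at 0d than in WT livers. The uptake carriers Slc10a1 and Slco1a4 were also lower and are not shown. Each is the 250 bases before an annotated transcription start, 5′ to 3′ on the gene's strand, from RefSeq on GRCm38.p6, with motif matches in capitals. The motifs marked are the core of the antioxidant response element to which NRF2 is known to bind, TGACNNNGC, the core hexamer of nuclear receptor sites, AGGTCA, and the core of HNF1 sites, GTTAAT, each searched on both strands, so that a match on the opposite strand appears as its reverse complement. None of the marked matches overlap.
Abcc4 (distal start), chr14:118706220-118706469, minus strand: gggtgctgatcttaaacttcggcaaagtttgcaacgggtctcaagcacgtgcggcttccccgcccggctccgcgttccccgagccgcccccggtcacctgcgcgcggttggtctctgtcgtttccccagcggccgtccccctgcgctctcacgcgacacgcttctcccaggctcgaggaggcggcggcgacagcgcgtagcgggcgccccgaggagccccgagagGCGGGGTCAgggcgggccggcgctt
Abcc4 (internal start), chr14:118676932-118677181, minus strand: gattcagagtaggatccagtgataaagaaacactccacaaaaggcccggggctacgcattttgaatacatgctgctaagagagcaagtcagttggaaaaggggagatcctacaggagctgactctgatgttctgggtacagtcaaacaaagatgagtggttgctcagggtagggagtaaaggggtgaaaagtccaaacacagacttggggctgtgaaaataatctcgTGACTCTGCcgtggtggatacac
Abcc2, chr19:43782058-43782307, plus strand: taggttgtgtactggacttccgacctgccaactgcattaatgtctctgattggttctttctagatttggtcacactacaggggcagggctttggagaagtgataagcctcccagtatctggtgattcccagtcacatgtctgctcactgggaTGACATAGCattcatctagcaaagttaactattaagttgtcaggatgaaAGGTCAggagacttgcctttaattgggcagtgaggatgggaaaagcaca
Slco1a1, chr6:141946963-141947212, minus strand: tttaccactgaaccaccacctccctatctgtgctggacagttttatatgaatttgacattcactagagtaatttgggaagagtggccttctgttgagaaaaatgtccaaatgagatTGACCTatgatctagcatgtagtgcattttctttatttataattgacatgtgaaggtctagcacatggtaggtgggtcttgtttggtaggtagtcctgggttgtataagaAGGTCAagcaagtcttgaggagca
Slco1b2, chr6:141629268-141629517, plus strand: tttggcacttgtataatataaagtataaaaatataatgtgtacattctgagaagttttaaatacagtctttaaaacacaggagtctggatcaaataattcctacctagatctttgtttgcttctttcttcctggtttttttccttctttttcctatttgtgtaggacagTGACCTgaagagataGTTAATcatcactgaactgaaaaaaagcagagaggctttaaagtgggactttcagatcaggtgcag
The antioxidant response core, in either strand, was present upstream of both annotated Abcc4 starts and of Abcc2. At the distal Abcc4 start it lies on the opposite strand, 25 bases before the start, at the internal start 23 bases before it, and in Abcc2 98 bases before it. The 300-base windows searched run from 250 bases before to 50 after a start. This core is in 12.39% of 32851 windows in the genome table. It is in 3 of the 11 carrier windows, which come from 2 of the 9 carrier genes with a window. AGGTCA was found in 7 of the 11 carrier windows, from 7 of 9 genes, and in 16.26% of all windows. GTTAAT was in 1 of the 11, that of Slco1b2, and in 7.099% of all windows. The Slco1a4 window and 1 of the 2 Slc10a1 windows held none of these motifs. Longer motifs searched were the inverted repeat of AGGTCA spaced by 1 base that is bound by FXR, and a 9-base HNF4 motif. They were in none of the 11 carrier windows and in 0.009132% and 0.4749% of all windows. Abcc3 had no window in the table. These are matches of letters only, and no binding was measured.

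Of the tested carriers only Slc51b did not pass the threshold between 0d livers and WT livers. All 4 sinusoidal uptake carriers and the bile salt export pump Abcb11 were lower at 0d, while the canalicular pump Abcc2 and the basolateral pumps Abcc3 and Abcc4 were higher. Of 9 tested carriers 8 passed the threshold, 3 higher and 5 lower, where 37.3% of all genes tested did, 18.3% higher and 19% lower. The 8 called carriers were those whose 0d and WT values did not overlap, and the share of all genes without overlap was not counted. Median log2 fold change was -1.22 over the 9 carriers and 0.00 over all genes.

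By 50 days 1 of 9 carriers, Slco1a4, passed the threshold against WT, being lower, where 11.2% of all genes did, 6.45% higher and 4.79% lower. At 7 days 4 of 9 differed from 0d, 2 higher and 2 lower, against 26.6% of all genes, 14.7% higher and 11.9% lower. The same counts held at 21 days, against 31.6% of all genes, 17.6% higher and 14% lower. At 50 days 7 of 9 differed from 0d, 4 higher and 3 lower, against 25.8% of all genes, 14.4% higher and 11.4% lower. Between 50d and 7d none passed, where 0.441% of all genes did, 0.286% higher and 0.154% lower, and 3 of 9 carriers had an unadjusted p under 0.05 in edgeR, as did 9.8% of all genes. DESeq2 also called 0 of the carriers, where it called 1.2% of all genes, and it gave no adjusted p for Abcc4.

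Fah-/- tumors differed from adjacent tissue in 4 of 9 carriers, 1 higher and 3 lower, where 15.3% of all genes passed, 8.19% higher and 7.08% lower. Hdac3-/- tumors differed from adjacent tissue in 2 of 9, 1 higher and 1 lower, where 10.3% of all genes passed, 5.29% higher and 4.98% lower. Between the Fah-/- and Hdac3-/- tumors 0 of 9 carriers and 0% of all genes passed. None of the carriers had an unadjusted p under 0.05 in edgeR there, where 6.92% of all genes did. DESeq2 called 0 of the carriers, where it called 0.279% of all genes, and it gave no adjusted p for Slco1a1. The groups of all 10 carriers overlapped, and the share of all genes that did was not counted.

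**Figure D1:**
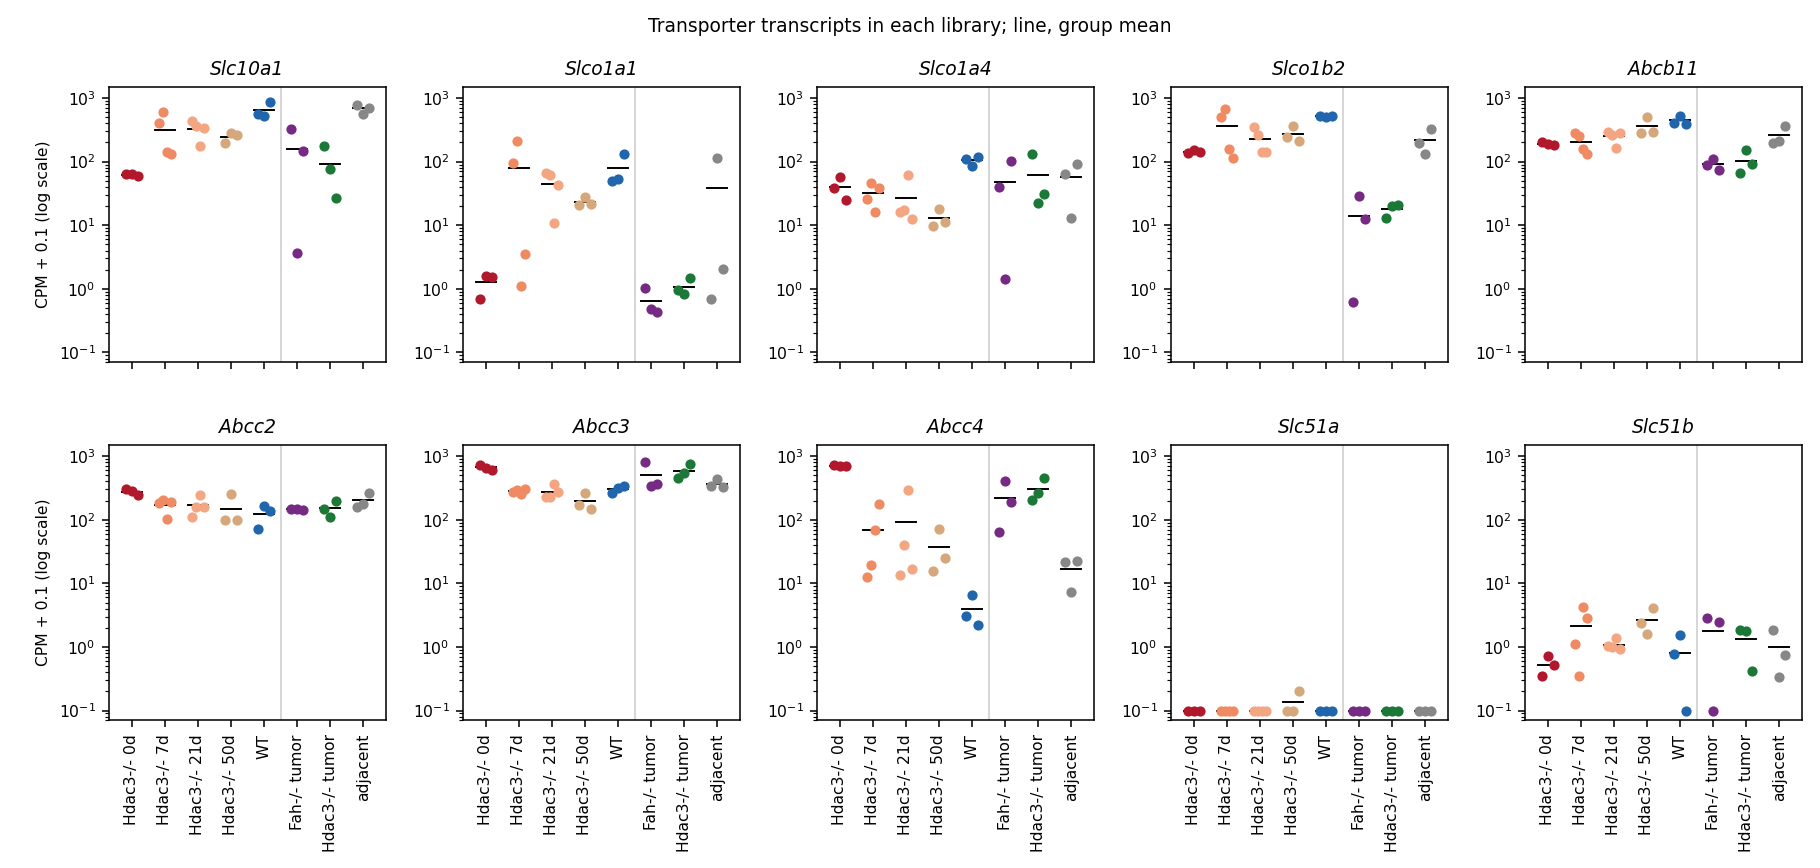
Transcript level (CPM + 0.1, log scale) of each of the 10 carriers in every library, by group, with the group mean as a line. In 0d livers Slc10a1 and Slco1a1 lie below and Abcc4 above all WT points, and in both tumor groups Abcc4 lies above all adjacent points.

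Slc10a1, the main bile acid uptake carrier (gene 20493, chr12:80953185-80968705), had 63.1, 64.3 and 60.1 CPM at 0d. It had 399, 598, 141 and 134 CPM at 7d, 438, 356.5, 178.5 and 338 CPM at 21d, and 196, 282 and 266 CPM at 50d. WT livers had 562, 523 and 859 CPM. The 0d values lay within a narrow range, under those of all other young livers, and every later library lay above them. The 7d libraries fell into a high pair, replicates 1 and 2, and a low pair, replicates 3 and 4. Slc10a1 was lower at 0d than in WT (log2 fold change -3.37 ± 0.50, adjusted p = 0.000189). It was higher than at 0d on each later day, by 2.34 ± 0.46 at 7d (adjusted p = 0.00266), 2.38 ± 0.47 at 21d (0.00172) and 1.98 ± 0.47 at 50d (0.0072). These calls were kept when any 1 library was left out, but with all 26 libraries in 1 fit those at 7d (adjusted p = 0.0556) and 50d (adjusted p = 0.11) were lost. The 50d livers still lay under all WT livers, but the difference of -1.39 ± 0.47 missed the threshold (adjusted p = 0.0646). Tumors varied widely, with 329, 3.51 and 148 CPM in Fah-/- tumors and 176, 75.8 and 27.1 CPM in Hdac3-/- tumors, against 788, 561 and 704 CPM in adjacent tissue. All tumor values lay under all adjacent ones, yet neither difference passed (Hdac3-/- tumor, -2.88 ± 1.17, adjusted p = 0.145; Fah-/- tumor, -2.10 ± 1.14, adjusted p = 0.233).

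Slco1a1, a carrier of steroid sulfates and bile acids that is known to be higher in male than in female mouse liver, lies on chromosome 6 (gene 28248, chr6:141907281-141946962). It had 0.594, 1.48 and 1.45 CPM at 0d. The 7d livers had 96.7, 213, 0.989 and 3.44 CPM, the 21d livers 65.6, 62.0, 10.7 and 42.3 CPM, and the 50d livers 20.7, 27.7 and 21.7 CPM. WT livers had 50.2, 52.4 and 131 CPM. At 0d Slco1a1 lay under all WT libraries. At 7d replicate 3 was within the 0d range and replicate 4 somewhat above it, while replicates 1 and 2 were within or above the WT range. Slco1a1 was lower at 0d than in WT (-6.03 ± 1.46, adjusted p = 0.00467), and both groups lacked Y-linked transcripts. It was higher than at 0d at 7d (6.04 ± 1.43, adjusted p = 0.00734, groups overlapping), 21d (5.25 ± 1.40, adjusted p = 0.0107) and 50d (4.30 ± 1.40, adjusted p = 0.0342). The 21d call was lost without 0d replicate 1 (4.92), and that at 50d without any 1 of the 6 libraries (3.98 to 4.50) and with all 26 libraries in 1 fit (adjusted p = 0.0662). With log2(FPKM + 1) the calls at 7d (adjusted p = 0.0674, and 0.099 with no filter) and 50d (adjusted p = 0.0945, and 0.135 with no filter) were lost, and that at 7d also with only those 2 groups (adjusted p = 0.0559). The 50d livers lay under all WT livers, but that difference missed the threshold (-1.74 ± 1.12, adjusted p = 0.34). The 7d libraries 3 and 4 are also those with summed hepatocyte markers of 42080 and 39790 CPM, against 85310 and 128200 CPM in replicates 1 and 2, and the part of that in the values was not tested.

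In older tissue Slco1a1 stood at 0.941, 0.379 and 0.333 CPM in Fah-/- tumors and 0.868, 0.727 and 1.36 CPM in Hdac3-/- tumors. Adjacent tissue had 0.594, 113 and 1.92 CPM. Only adjacent replicate 2, which held Y-linked transcripts, was high, and Hdac3-/- tumor replicate 3, which held them too, was not. The difference of Fah-/- tumors from adjacent tissue passed (-6.11 ± 1.74, adjusted p = 0.043) but rested on that library, since it was -1.19 (adjusted p = 0.328) without it. It was also lost without any 1 Fah-/- tumor (-6.70 to -5.88), with Y-linked transcripts as a covariate (-2.22, adjusted p = 0.297), with the replicate block (-4.26, adjusted p = 0.185), and with log2(FPKM + 1) and no filter (adjusted p = 0.361). The difference of Hdac3-/- tumors, -5.26 ± 1.64 (adjusted p = 0.0714), was -0.35 without adjacent replicate 2.

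Slco1a4, an OATP carrier known to be higher in female than in male mouse liver and a target of PXR, is a neighbour of Slco1a1 (gene 28250, chr6:141805438-141856284). It had 38.4, 56.8 and 24.8 CPM at 0d, 26.2, 45.4, 16.2 and 38.1 CPM at 7d, 15.96, 17.5, 61.3 and 12.3 CPM at 21d, and 9.54, 18.1 and 11.1 CPM at 50d. WT livers had 109, 86.4 and 117 CPM. All 14 Hdac3-/- young libraries lay under the lowest WT library, and the 50d livers had the lowest mean, with values overlapping those at 21d. Slco1a4 was lower at 0d than in WT (-1.38 ± 0.51, adjusted p = 0.0439), a call lost without any 1 of the 3 WT libraries, 0d replicate 1 or 0d replicate 3 (-1.50 to -1.14), and with library totals as the only scaling (-1.08, adjusted p = 0.11). It was also lost with all 26 libraries in 1 fit, in all 3 fits of log2 FPKM and with the replicate block (adjusted p of 0.0559 to 0.255). It was lower at 50d than in WT (-3.01 ± 0.55, adjusted p = 0.00242), a call kept without any 1 library and lost with all 26 libraries in 1 fit (adjusted p = 0.0678), and lower at 50d than at 0d (-1.63 ± 0.53, adjusted p = 0.0323). This second call was lost without 0d replicates 1 or 2 or 50d replicates 1 or 3 (-1.66 to -1.28), and with all 26 libraries in 1 fit (adjusted p = 0.23). At 21d the difference from 0d was -0.58 ± 0.47 (adjusted p = 0.36), and -1.39 (adjusted p = 0.00734) without replicate 3. Unlike Slco1a1, Slco1a4 was at 39.7, 1.33 and 101 CPM in Fah-/- tumors and 130.0, 21.9 and 30.8 CPM in Hdac3-/- tumors, against 64.6, 12.8 and 92.9 CPM in adjacent tissue. These groups overlapped and no difference passed (Hdac3-/- tumor, 0.10 ± 1.17, adjusted p = 0.971; Fah-/- tumor, -0.26 ± 1.17, adjusted p = 0.899).

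**Figure D2:**
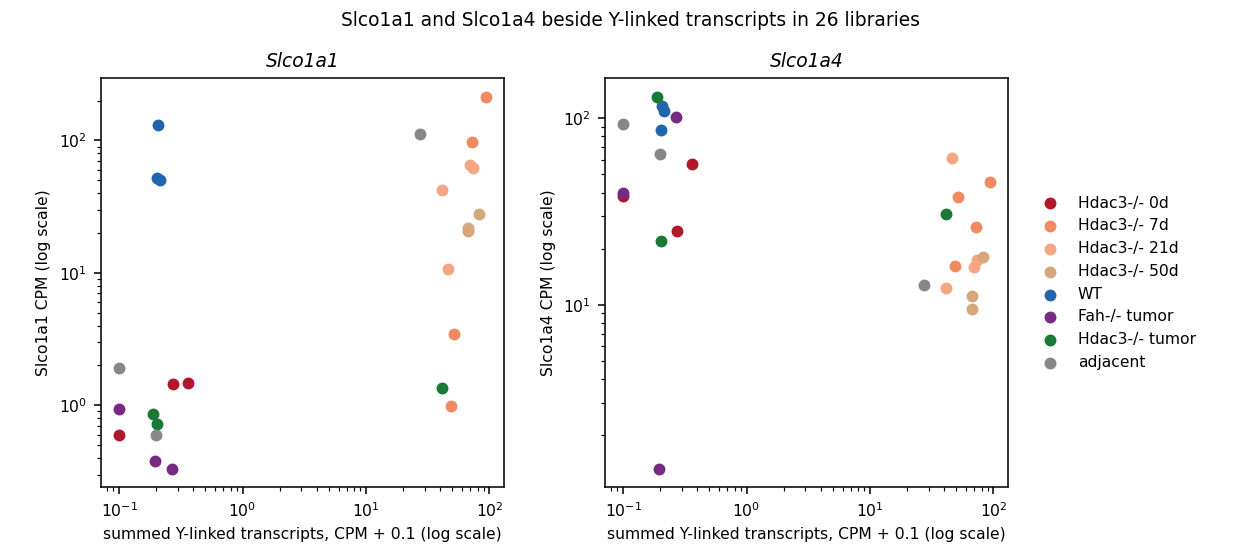
Slco1a1 (left) and Slco1a4 (right) in CPM against summed Y-linked transcripts in CPM + 0.1, both on log scales, for all 26 libraries colored by group. WT livers are high in both genes without Y-linked transcripts, and the libraries that hold them range from 0.989 to 213 CPM of Slco1a1.

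Reads of Slco1a1 and Slco1a4 are partly shared with near copies. Their deposited counts were not whole in 25 of 26 libraries, and the sum over Slco1a1, Slco1a4, Slco1a5, Slco1a6 and Gm6614 was whole within 0.03 in 26 of 26 libraries. The other three had at most 2.06, 7.07 and 4.18 counts in any library, so the division of counts between Slco1a1 and Slco1a4 is the uncertain part. Slc10a1 and Abcc4 also had counts that were not whole in 26 and 24 libraries, with no single partner found.

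Slco1b2, the liver-specific OATP for bile acids, bilirubin and many drugs (gene 28253, chr6:141629452-141686646), had 138, 153 and 139 CPM at 0d. It had 498, 682, 157 and 114 CPM at 7d, 351, 265, 144 and 142.5 CPM at 21d, and 242, 357 and 214 CPM at 50d. WT livers were closely alike at 516, 506 and 519.5 CPM. The 0d and 50d libraries all lay under WT, and at 7d replicate 2 lay above WT and replicate 1 just under it. Slco1b2 was lower at 0d than in WT (-1.84 ± 0.52, adjusted p = 0.0124), a call lost with all 26 libraries in 1 fit (adjusted p = 0.0634). The later days did not differ from 0d past the threshold (7d, 1.33 ± 0.49, adjusted p = 0.0561; 21d, 0.65 ± 0.48, adjusted p = 0.315; 50d, 0.91 ± 0.51, adjusted p = 0.199), and 50d did not differ from WT past it (-0.92 ± 0.51, adjusted p = 0.258).

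In older tissue Slco1b2 had 0.523, 28.3 and 12.2 CPM in Fah-/- tumors and 12.8, 19.8 and 21.0 CPM in Hdac3-/- tumors, against 198.5, 132 and 323 CPM in adjacent tissue. Every tumor lay far under every adjacent sample, and under every young liver, 0d included. Slco1b2 was lower than in adjacent tissue in Fah-/- tumors (-4.01 ± 0.98, adjusted p = 0.0254) and in Hdac3-/- tumors (-3.61 ± 0.96, adjusted p = 0.0432). The first call was lost without adjacent replicates 1 or 3 or Fah-/- tumor replicate 3 (-4.08 to -3.62), and the second without any 1 of the 6 libraries (-3.88 to -3.22). The first was also lost with only those 2 groups (adjusted p = 0.0616), and the second with library totals, log2(FPKM + 0.1), the replicate block or the Y-linked covariate (adjusted p of 0.0559 to 0.0854). Without the libraries holding Y-linked transcripts both were lost (-4.29, adjusted p = 0.079, and -4.02, adjusted p = 0.185). Summed hepatocyte markers were 29780 to 77880 CPM in Fah-/- tumors and 34110 to 115400 CPM in Hdac3-/- tumors, against 104300 to 133800 CPM in adjacent tissue.

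Abcb11, which pumps bile salts into the canaliculus (gene 27413, chr2:69238282-69342616), had 201, 189.7 and 179.9 CPM at 0d, 278, 253, 160.3 and 131 CPM at 7d, 290.0, 261, 166.5 and 281.5 CPM at 21d, and 285, 495 and 289 CPM at 50d. WT livers had 409, 530.4 and 395 CPM. All 0d values lay under all WT values, and 50d overlapped WT. Abcb11 was lower at 0d than in WT (-1.22 ± 0.30, adjusted p = 0.00485) and higher at 50d than at 0d (0.90 ± 0.29, adjusted p = 0.0341). The 50d call was lost without any 1 of the 0d libraries or 50d replicate 2 (0.60 to 0.95), with all 26 libraries in 1 fit and in the 3 fits of log2 FPKM (adjusted p of 0.0533 to 0.0718). At 50d the difference from WT was -0.32 ± 0.29 (adjusted p = 0.518).

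Among older samples Abcb11 had 89.4, 109.5 and 73.4 CPM in Fah-/- tumors and 65.3, 152 and 91.8 CPM in Hdac3-/- tumors, against 193, 213 and 369 CPM in adjacent tissue. No tumor reached the lowest adjacent sample. Abcb11 was lower in Fah-/- tumors (-1.52 ± 0.39, adjusted p = 0.029), a call lost without adjacent replicates 2 or 3 or Fah-/- tumor replicates 1 or 3 (-1.64 to -1.17), without the libraries holding Y-linked transcripts (-1.65, adjusted p = 0.0897), and with log2(FPKM + 1) and no filter (adjusted p = 0.0628). The difference of Hdac3-/- tumors was -1.33 ± 0.38 and missed the threshold (adjusted p = 0.057).

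Abcc2, the canalicular pump for bilirubin glucuronides and other conjugates (gene 12780, chr19:43782308-43838332), moved the other way at 0d. It had 299.7, 280.3 and 247 CPM at 0d, 183, 205, 102 and 189.9 CPM at 7d, 109, 159, 247 and 160.3 CPM at 21d, and 98.9, 251 and 99.2 CPM at 50d. WT livers had 71.5, 165 and 136 CPM. The 0d livers lay above all WT livers. Abcc2 was higher at 0d than in WT (1.15 ± 0.39, adjusted p = 0.0292), which was lost without WT replicates 1 or 3 or 0d replicates 1 or 2 (0.87 to 1.22). No later day differed from 0d past the threshold (-0.89 to -0.70, adjusted p of 0.102 to 0.156). Fah-/- tumors with 149, 148 and 142 CPM and Hdac3-/- tumors with 147, 110.5 and 198 CPM stood beside adjacent tissue with 161, 179 and 263.5 CPM, and neither difference passed (adjusted p = 0.307 and 0.404).

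Abcc3, the basolateral pump for glucuronides and bile acids (gene 76408, chr11:94343295-94393017), had 721, 657 and 612 CPM at 0d. It had 273, 297, 249.8 and 304 CPM at 7d, 225, 227, 370.2 and 270.0 CPM at 21d, and 169.8, 262 and 149.6 CPM at 50d. WT livers had 259, 315.5 and 335 CPM. The 0d livers were the highest young group with no overlap with any other, and the 7d, 21d and 50d ranges all overlapped WT. At 50d, replicates 1 and 3 lay under all WT libraries, and the difference from WT missed the threshold (-0.65 ± 0.23, adjusted p = 0.0777). Abcc3 was higher at 0d than in WT (1.13 ± 0.23, adjusted p = 0.00153), and lower than at 0d at 7d (-1.24 ± 0.21, adjusted p = 0.00103), 21d (-1.28 ± 0.21, adjusted p = 0.000673) and 50d (-1.78 ± 0.23, adjusted p = 0.000198). These 4 calls were kept when any 1 library was left out. Tumor values of 797, 340.4 and 365 CPM in Fah-/- and 446, 543 and 759 CPM in Hdac3-/- mice stood against 340.5, 435 and 323 CPM in adjacent tissue. The Hdac3-/- tumors lay above all adjacent samples and the Fah-/- tumors did not, and neither difference passed (0.67 ± 0.40, adjusted p = 0.307, and 0.45 ± 0.39, adjusted p = 0.466).

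Abcc4, the basolateral pump for bile acids together with glutathione and for cyclic nucleotides (gene 239273, chr14:118482692-118707856), gave the largest fold change of the 9 tested carriers between 0d and WT livers. It had 729.7, 705 and 692 CPM at 0d. The 7d livers had 12.4, 19.2, 68.9 and 174 CPM, the 21d livers 13.5, 39.4, 292 and 16.7 CPM, and the 50d livers 15.3, 71.5 and 24.8 CPM. WT livers had 2.95, 6.55 and 2.11 CPM. The 0d libraries were alike and above all 23 others, and every later library lay between 0d and WT without overlapping either. Abcc4 was higher at 0d than in WT (7.51 ± 1.39, adjusted p = 0.000811; 7.21 to 8.13 when 1 library was left out).

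Against 0d, Abcc4 was lower at 7d (-3.37 ± 1.00, adjusted p = 0.0217), 21d (-2.97 ± 0.99, adjusted p = 0.0314) and 50d (-4.26 ± 1.17, adjusted p = 0.0149). At 7d the call was lost without 0d replicate 1 or 7d replicates 1 or 2 (-3.33 to -3.02), and it was -4.37 without 7d replicate 4. At 21d replicate 3 stood apart at 292 CPM: without it the fold change was -4.94 (adjusted p = 0.000863), and without any 1 of the other 6 libraries the call was lost (-2.98 to -2.61). At 50d the call was lost without 50d replicates 1 or 3 (-4.03 to -3.88). The difference that remained between 50d and WT, 3.26 ± 1.18, missed the threshold (adjusted p = 0.0857) although no 50d library was as low as any WT library.

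In tumors Abcc4 had 63.4, 407 and 189 CPM in Fah-/- mice and 202, 266 and 449 CPM in Hdac3-/- mice, against 21.3, 7.11 and 22.0 CPM in adjacent tissue. All 6 tumors lay above all adjacent samples and below all 0d livers. Abcc4 was higher than in adjacent tissue in Fah-/- tumors (3.69 ± 0.72, adjusted p = 0.0113) and in Hdac3-/- tumors (4.17 ± 0.73, adjusted p = 0.0108). Of the carriers it was the one called in both tumor comparisons under each left-out library, with adjusted p up to 0.0469 and 0.0466. Both calls were lost when the libraries with Y-linked transcripts were left out together (3.31, adjusted p = 0.0599, and 3.41, adjusted p = 0.10), which leaves 2 adjacent samples and 2 Hdac3-/- tumors. With those samples 4.04% of all genes were called for Fah-/- tumors and 0 of 13502 genes for Hdac3-/- tumors. The tumor comparisons share their adjacent samples.

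Slc51a and Slc51b, whose products work only as a pair, were hardly found. Slc51a (gene 106407, chr16:32475578-32487879) had 1 count in 1 of 26 libraries, 50d replicate 3, and was not tested. A count of 0 allows up to 3 counts, which is 0.25 to 0.367 CPM per library, counting error only. Slc51b (gene 330962, chr9:65412753-65422773) was listed in 24 of 26 libraries with at most 42 counts. It had 0.254, 0.609 and 0.427 CPM at 0d, 1.02, 0.245, 4.15 and 2.77 CPM at 7d, 0.939, 0.899, 1.27 and 0.83 CPM at 21d, and 2.27, 1.49 and 4.05 CPM at 50d, against 0.681, 1.46 and 0 CPM in WT livers. Slc51b was higher at 50d than at 0d (2.56 ± 0.85, adjusted p = 0.0368), a call lost without any 1 of the 0d libraries or 50d replicates 1 or 3 (2.10 to 2.89), and under each of 6 other settings (adjusted p of 0.0558 to 0.138). It did not differ past the threshold between 0d and WT (-0.71 ± 0.94, adjusted p = 0.578). Fah-/- tumors had 2.72, 0 and 2.33 CPM and Hdac3-/- tumors 1.74, 1.66 and 0.314 CPM, against 1.78, 0.237 and 0.64 CPM in adjacent tissue.

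**Figure D3:**
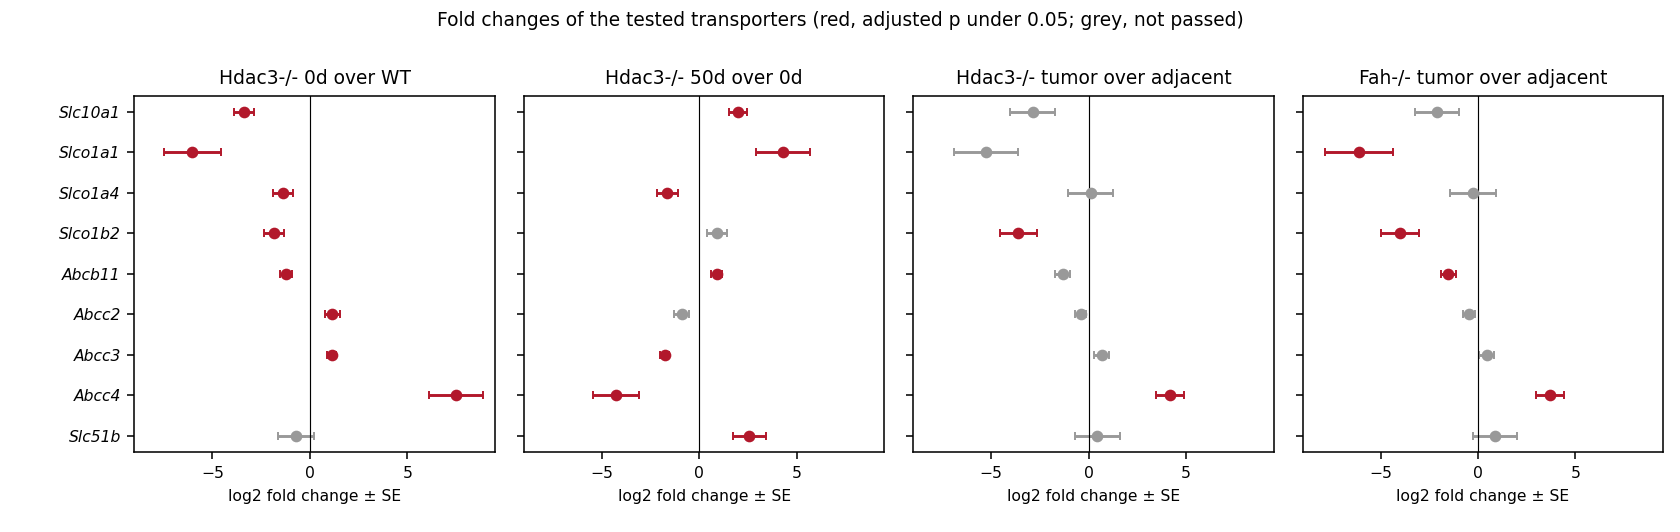
Log2 fold change ± SE of the 9 tested carriers for 0d over WT, 50d over 0d, Hdac3-/- tumor over adjacent and Fah-/- tumor over adjacent, with those past an adjusted p of 0.05 in red. At 0d the uptake carriers and Abcb11 lie left of 0 and Abcc2, Abcc3 and Abcc4 right of it, and at 50d over 0d Slc10a1, Abcc3 and Abcc4 lie on the opposite side.

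The balance between roles can be read per gene length from FPKM. In 0d livers Abcc3 (151 ± 11.2 FPKM) and Abcc4 (144 ± 2.15 FPKM) were the most abundant of the 10 carriers and Slc10a1 stood at 44.0 ± 1.02 FPKM. In WT livers Slc10a1 was the most abundant (365 ± 105 FPKM), Slco1b2 came next (145 ± 7.16 FPKM), and Abcc4 averaged 0.643 ± 0.415 FPKM (SD, n = 3 each). Of the summed FPKM of the 10 genes, the 4 uptake carriers made up 21.0% at 0d (19.8 to 22.5% over libraries), 62.9% at 7d, 63.6% at 21d and 62.2% at 50d, against 76.8% (71.1 to 81.1%) in WT livers. The 4 basolateral exporters made up 58.7% at 0d, 19.96% at 7d, 17.5% at 21d and 12.9% at 50d, against 8.19% in WT livers. The mean share of the canalicular pumps was between 13.2% and 24.9% in all 8 groups.

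**Figure D4:**
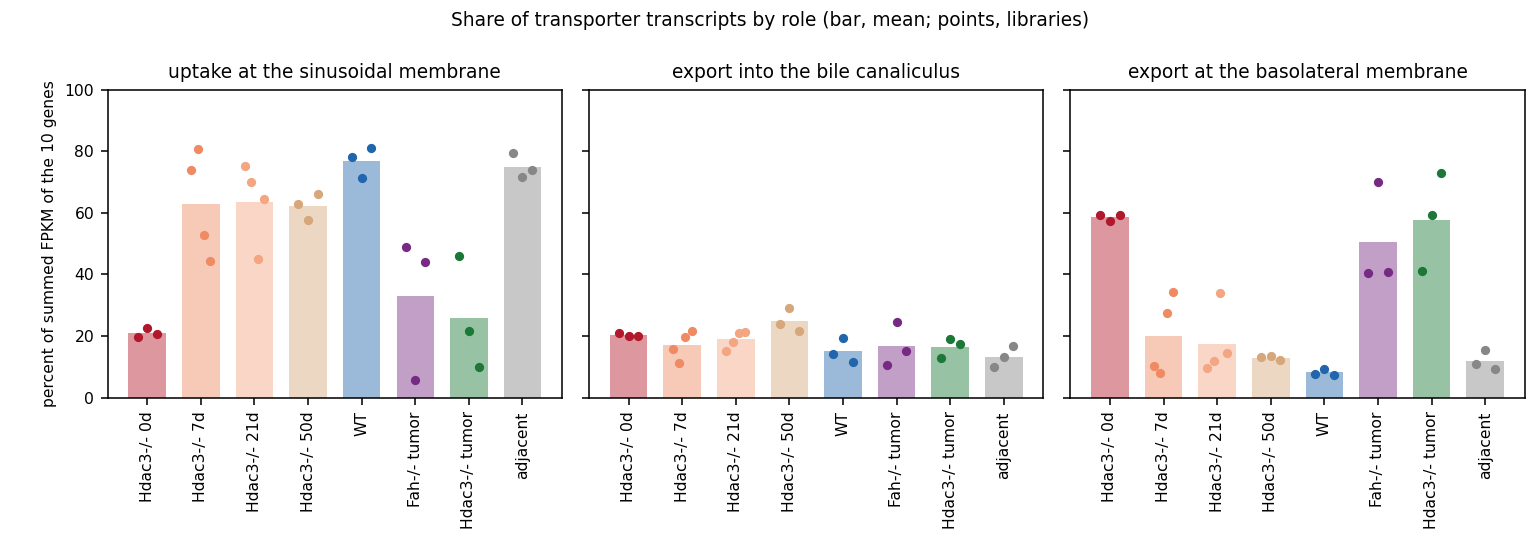
Share (percent) of the summed FPKM of the 10 carriers taken by uptake carriers, canalicular pumps and basolateral exporters, with bars for group means and points for libraries. Basolateral exporters hold the largest share in every 0d library, and among tumors the points are split between uptake carriers and basolateral exporters.

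In Fah-/- tumors the uptake share was 32.9% (5.62 to 48.9%) and in Hdac3-/- tumors 25.9% (9.87 to 46.1%), against 74.9% (71.5 to 79.4%) in adjacent tissue. The basolateral share was 50.4% (40.6 to 69.8%) in Fah-/- tumors and 57.7% (41.1 to 72.8%) in Hdac3-/- tumors, against 11.8% (9.37 to 15.3%) in adjacent tissue. The order of the 2 shares was not the same in all tumors: in Fah-/- tumors 1 and 3 and Hdac3-/- tumor 1 the uptake share was the larger, with 48.9% against 40.6%, 44.1% against 40.9% and 46.1% against 41.1%. The higher basolateral mean of the Fah-/- tumors rests on replicate 2, with 5.62% uptake and 69.8% basolateral. Set against each other in 1 library, Abcc4 over Slc10a1 was 3.19 to 3.33 by FPKM at 0d, 0.00903 to 0.384 at 7d, 0.00896 to 0.486 at 21d and 0.0229 to 0.0737 at 50d, against 0.000742 to 0.0036 in WT livers. The ratio was 0.0564 to 31.2 in Fah-/- tumors and 0.34 to 4.79 in Hdac3-/- tumors, against 0.00363 to 0.00911 in adjacent tissue. No tumor fell into the range of adjacent tissue, and the widest spread was among the Fah-/- tumors.

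**Figure D5:**
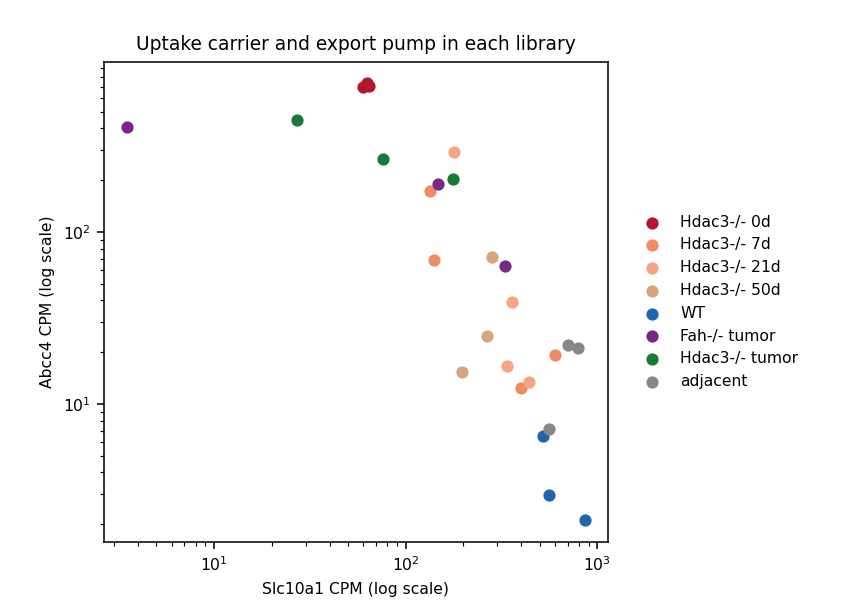
Abcc4 against Slc10a1, both in CPM on log scales, in each of the 26 libraries colored by group. The 0d livers form a tight group at 60.1 to 64.3 CPM of Slc10a1 and 692 to 729.7 CPM of Abcc4, and WT and adjacent samples lie at the lower right. The later days lie between, while 2 tumors, at 3.51 and 27.1 CPM of Slc10a1, lie to the left of the 0d group.

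Genes of the same pathways were counted from lists chosen with earlier results of these data known, and the median log2 fold change over all genes lay between -0.02 and 0.04 in every comparison. The shares of all genes called, given above for each comparison, are the background of these counts. Of 11 other organic anion and cation carriers tested, 1 was higher and 8 lower at 0d than in WT, with a median log2 fold change of -1.82. Slc22a7 (OAT2), an organic anion carrier, was at 0.601 ± 0.0932 CPM at 0d and 31.9 ± 9.87 CPM in WT livers (-5.70 ± 0.74, adjusted p = 7.91e-05), and Slco2b1, another OATP, at 27.9 ± 1.58 and 178 ± 29.7 CPM (-2.67 ± 0.37, adjusted p = 0.000113). At 7d, 21d and 50d 6 of the 11 were higher than at 0d and none lower, and 0 of 11 passed between 50d and WT. In Fah-/- tumors 8 of 12 were lower than in adjacent tissue and 1 higher, and in Hdac3-/- tumors 6 of 12 were lower and 0 higher.

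Other ABC transporters were split. At 0d 4 of 12 were higher and 4 lower than in WT. The multidrug pump Abcb1b was higher (19.2 ± 10.5 CPM at 0d, 0.574 ± 0.162 CPM in WT; 5.04 ± 0.46, adjusted p = 6.34e-06) and so was Abcc1 (MRP1), another basolateral pump (3.04 ± 0.48, adjusted p = 0.0003). The sterol transporter subunit Abcg5 (-1.96 ± 0.33, adjusted p = 0.000476) and Abcc6 (-2.11 ± 0.40, adjusted p = 0.000948) were lower. Abcc1 was also higher than in adjacent tissue in Fah-/- tumors (2.38 ± 0.70, adjusted p = 0.0482) and in Hdac3-/- tumors (2.77 ± 0.71, adjusted p = 0.0375).

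Bile acid synthesis and conjugation genes were lower together with the uptake carriers at 0d: 11 of 16 were lower than in WT and 0 higher, with a median of -1.22. Cyp8b1, the sterol 12-alpha-hydroxylase needed for cholic acid, was at 3.14 ± 1.00 CPM at 0d and 210 ± 80.1 CPM in WT livers (-6.05 ± 1.04, adjusted p = 0.000495). Slc27a5, the bile acid-CoA ligase, was at 151 ± 2.06 and 1019 ± 137 CPM (-2.75 ± 0.47, adjusted p = 0.000495). Higher than at 0d were 10 of 16 at 7d, 9 at 21d and 7 at 50d, with none lower, and 3 of 16 were lower at 50d than in WT. Lower than in adjacent tissue were 9 of 16 in Fah-/- tumors and 6 of 16 in Hdac3-/- tumors, with none higher.

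Among 17 nuclear receptors and regulators tested, 1 was higher and 6 lower at 0d than in WT, a share close to the 37.3% of all genes that passed. Nr1h4 (FXR) was at 61.5 ± 6.27 CPM at 0d and 118 ± 36.0 CPM in WT livers (-0.94 ± 0.28, adjusted p = 0.0165), and its target Nr0b2 (SHP) at 5.52 ± 0.498 and 21.7 ± 14.97 CPM (-1.96 ± 0.47, adjusted p = 0.00472). The FGF15 receptor gene Fgfr4 (-2.62 ± 0.42, adjusted p = 0.000294) and Nr1i3 (-2.54 ± 0.35, adjusted p = 0.000114) were lower, and Nfe2l2 (NRF2) was higher (1.14 ± 0.26, adjusted p = 0.00343). Hnf4a, which sustains hepatocyte genes, was at 543 ± 21.6 CPM at 0d and 809.5 ± 149 CPM in WT livers and did not pass (-0.57 ± 0.22, adjusted p = 0.054). At 50d Nr0b2 was higher than at 0d (2.25 ± 0.48, adjusted p = 0.00348), while Nr1i3 (CAR) and Nr1i2 (PXR) were lower than in WT (-1.89 ± 0.34, adjusted p = 0.00229, and -1.03 ± 0.30, adjusted p = 0.0354). Of 10 CAR and PXR targets, 1 was higher and 3 lower at 0d than in WT, and 1 higher and 5 lower at 50d. Of 9 tested in older tissue, 1 was higher and 2 lower in Fah-/- tumors than in adjacent tissue, and 1 higher and 0 lower in Hdac3-/- tumors. This list shares Cyp2b9, Cyp2b13 and Sult2a1 with the female-biased genes.

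The 10 NRF2 targets on the list, glutathione and redox genes that leave out the carriers described here, were all higher at 0d than in WT, with a median of 2.26. Their summed level was 15090 to 15720 CPM at 0d and 2186 to 2831 CPM in WT livers. Gclc, the catalytic subunit of glutathione synthesis, was at 2581 ± 179.5 CPM at 0d and 294 ± 81.7 CPM in WT livers (3.14 ± 0.43, adjusted p = 0.000115), and Gsta1, a glutathione transferase, at 686 ± 41.6 and 2.70 ± 2.02 CPM (7.98 ± 1.21, adjusted p = 0.000211). Lower than at 0d were 4 of 10 at 7d, 6 at 21d and 7 at 50d, and 2 of 10 were higher at 50d than in WT. In Fah-/- tumors 5 of 10 and in Hdac3-/- tumors 6 of 10 were higher than in adjacent tissue, with none lower (medians 2.45 and 2.35). Nfe2l2 itself was higher in both (1.57 ± 0.34, adjusted p = 0.0171, and 1.84 ± 0.35, adjusted p = 0.0138). Of the 17 regulators tested it was the 1 higher in each, while 5 were lower in Fah-/- tumors and 3 in Hdac3-/- tumors. Nr1i3 (CAR) was among the lower ones in both (-5.17 ± 0.88, adjusted p = 0.00685, and -4.08 ± 0.83, adjusted p = 0.0171).

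Of 9 bile duct markers tested 8 were higher than in WT, and the sum of the 10 on the list was 422 to 679 CPM at 0d and 63.3 to 76.6 CPM in WT livers. At 50d that sum was 576 to 953 CPM while Abcc4 was at 15.3 to 71.5 CPM. In tumors, where Abcc4 was high, bile duct markers summed to 110 to 241 CPM (Fah-/-) and 58.7 to 137 CPM (Hdac3-/-), against 90.9 to 148 CPM in adjacent tissue, and 0 of 8 tested passed in either comparison. All 10 hepatocyte markers were lower at 0d than in WT, by a median of -1.38, beside -1.22 for Abcb11, -1.84 for Slco1b2 and -3.37 for Slc10a1. Of 10 stellate cell and fibroblast markers 5 were higher at 0d and 0 lower, and of 10 macrophage markers 5 were higher and 2 lower. Of 9 endothelial markers 1 was higher, and 0 of 9 neutrophil and 0 of 6 erythroid markers passed. Their part in the carriers' levels was not tested.

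Sex-biased liver genes and neutrophil markers were counted in the same way. At 0d 10 of 12 female-biased genes were lower than in WT and 0 higher, and of 11 male-biased genes 3 were higher and 2 lower. Male-biased genes were higher than at 0d in 10 of 11 cases at 7d, 10 at 21d and 6 at 50d, and at 50d 12 of 12 female-biased genes were lower than in WT. Neutrophil markers were higher at 7d than at 0d in 9 of 9 cases. Within the 7d livers, replicates 1 and 2 had summed male-biased genes of 15710 and 7954 CPM, and replicates 3 and 4, with the lower Slc10a1, Slco1a1 and Slco1b2, had 1343 and 1541 CPM. Summed NRF2 targets were 3076 and 3585 CPM in replicates 1 and 2 and 6826 and 11510 CPM in replicates 3 and 4, which had the higher Abcc4. Neutrophil markers summed to 295 and 130.4 CPM in replicates 1 and 2 and to 2065 and 368 CPM in replicates 3 and 4. The part of these in the carriers' levels was not tested.

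Over the 26 libraries, the 3 genes whose level was most like each carrier were found among 9831 genes with a mean of at least 5 CPM, by Pearson's r of log2(CPM + 1), as a description of points that share groups. Abcc4 was most like Tgfbr2 (0.95), Gstm1 (0.94) and Srxn1 (0.94). Slc10a1 was most like Immp2l (0.95), Serpina1d (0.95) and Urah (0.93), Slco1a1 like Sult2a8 (0.90), Srd5a1 (0.89) and Hsd3b7 (0.88), and Slco1a4 like Acadl (0.90), Grpel2 (0.81) and Nr1i2 (0.81). Slco1b2 was most like Fam107b (0.93), Nr3c1 (0.93) and Ddx5 (0.92), and Abcb11 like Afm (0.90), Echdc1 (0.90) and Ipo8 (0.89). Abcc2 was most like Baz2a (0.82), Foxo3 (0.81) and Dop1b (0.81), and Abcc3 like Mtor (0.90), Ttc17 (0.88) and Fitm2 (0.87). Slc51a and Slc51b were under the minimum.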

How the data were processed

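RNA was extracted with Trizol from frozen liver tissue and made into libraries with the TruSeq RNA kit, per the labels' protocols. HISAT, Bowtie2 and the mm10 build are named in the submitters' processing notes, and no source used here names the counting tool. The authors deposited, per sample, an expected count and an FPKM value for each gene. Of the expected counts, 20.1 to 21.8% per library were not whole, and they were rounded before testing. A gene missing from a file was taken as 0. Of 19638 gene IDs, 19573 matched a symbol by Entrez ID and 11 by accession.

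Computed here were CPM with TMM factors over all 26 libraries and edgeR 4.0.16 quasi-likelihood tests (filterByExpr, TMM, Benjamini-Hochberg, threshold 0.05). The 17 young libraries, with 13617 genes, and the 9 older ones, with 13187, were fitted separately. Alternatives were DESeq2 1.42.0, limma 3.58.1 on log2(FPKM + 1) and log2(FPKM + 0.1) with and without a filter of 1 FPKM in 3 libraries, library totals, other sets of samples, a replicate block, Y-linked transcripts and each library left out. R 4.3.3, Python 3.11.15, numpy 2.4.6, pandas 2.3.3 and matplotlib 3.10.9 were used, and the tests were tested on simulated data. Named were all 10 carriers, from each other list up to 4 genes per comparison with the smallest adjusted p among those past the threshold, and the 3 genes most like each carrier. Nfe2l2, Nr1h4, Nr0b2, Hnf4a, Nr1i2 and Nr1i3 are named as regulators of carriers. The members and lists were chosen with earlier results of these data known. Nothing in the labels ties replicates to separate animals, so p-values measure the spread between these samples. Replicate pairs differed by more than counting noise (chi-square per degree of freedom 7.67 to 291.91). Intervals and floors cover counting error only.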

Additional observations from a re-analysis of the deposited data

Results flagged for a closer look

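In the 21d livers, replicate 3 stood apart from the other 3 libraries in Abcc4, with 292.3 CPM against 13.5 to 39.4 CPM. Its gap to the nearest library was 0.907 of the group's range, above Dixon's critical value of 0.829. The same library had 61.31 CPM of Slco1a4, against 12.3 to 17.5 CPM in the others, a gap of 0.895 of the range. It also had the lowest Slc10a1 (178.5 CPM) and Slco1a1 (10.7 CPM) of the 21d livers, and the lowest summed hepatocyte markers (59980 CPM). Of 18 groups of 4 libraries checked, 2 were flagged, where chance flags about 1 in 20.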

How the results depend on the processing

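Of 1435 fold changes of single carriers under alternatives, 1244 kept direction and side of the threshold, 115 lost a call, 29 gained one and 47 turned direction. None of the 47 had passed the threshold, and the cause was not tested. The number of 9 carriers called moved as follows, with the share of all genes called at that setting. At an adjusted p of 0.01 it was 5 for 0d over WT (21.3%), 2 for 21d over 0d (15.5%), 2 for 50d over 0d (11.6%) and 0 for Hdac3-/- and Fah-/- tumor over adjacent tissue (1.92% and 3.68%). With all 26 libraries in 1 fit it was 0 for 50d over WT (4.92%), 2 for 50d over 0d (14.8%) and 5 for Hdac3-/- tumor over adjacent (28.1%). With only the 2 groups compared it was 5 for 50d over WT (15.4%), 4 for Hdac3-/- tumor (19.3%) and 2 for Fah-/- tumor over adjacent (9.57%). DESeq2 called 3 for 50d over WT (11%) and 4 for Hdac3-/- tumor over adjacent (12.5%), and gave no adjusted p for Abcc4 in 6 young comparisons and for Slco1a1 in 3 older ones. For Hdac3-/- tumor over adjacent the count was 1 with library totals (8.68%), 1 with log2(FPKM + 0.1) (10.7%) and 1 with Y-linked transcripts as a covariate (7.94%). Without the libraries holding Y-linked transcripts it was 0 for Hdac3-/- tumor (0%) and 0 for Fah-/- tumor over adjacent (4.04%). It was 2 for Fah-/- tumor over adjacent with log2(FPKM + 1) and no filter (7.61%). With 1 library left out, counts were 6 to 7 for 0d over WT (27.1 to 35.2%) and 1 to 2 for 50d over WT (4.8 to 11.1%). Over 0d they were 3 to 5 for 7d (12.7 to 30.5%), 2 to 5 for 21d (18 to 37.6%) and 3 to 6 for 50d (14.4 to 25%). They were 0 to 0 for 50d over 7d (0.152 to 0.574%) and 0 to 0 for Fah-/- over Hdac3-/- tumor (0 to 0.00743%). Over adjacent tissue they were 1 to 2 for Hdac3-/- tumor (2.13 to 6.16%) and 1 to 3 for Fah-/- tumor (5.31 to 14.4%).

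Same-numbered replicates did not deviate together (correlations of -0.21 to 0.24). A tumor and its adjacent tissue need not deviate together, so this cannot tell whether samples came from the same mouse. The main tests took all samples as independent. With the replicate block the counts, with the share of all genes called, were 7 for 0d over WT (36.7%) and 1 for 50d over WT (10.3%). Over 0d they were 5 for 7d (24.7%), 4 for 21d (30%) and 6 for 50d (25.5%). They were 0 for 50d over 7d (0.33%) and 0 for Fah-/- over Hdac3-/- tumor (0%). Over adjacent tissue they were 1 for Hdac3-/- tumor (7.7%) and 3 for Fah-/- tumor (12.6%).

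Directions turned as follows (log2 fold changes). Slc51b, 0d over WT, was 0.55 with log2(FPKM + 0.1). Abcb11, 7d over 0d, was -0.12 with library totals, -0.15 with log2(FPKM + 1), with or without the filter, and -0.15 with log2(FPKM + 0.1). Slco1a1, 50d over 7d, was 0.38 with log2(FPKM + 0.1). Slco1a4, Hdac3-/- tumor over adjacent, was -0.084 without libraries holding Y-linked transcripts. For Fah-/- over Hdac3-/- tumor, log2(FPKM + 1), with or without the filter, gave -0.16 for Slc10a1 and 0.0075 for Abcc2, and log2(FPKM + 0.1) gave -0.28 for Slc10a1, 0.0090 for Abcc2 and -0.60 for Slc51b. There the Y-linked covariate gave 0.43 for Slco1a1, 0.024 for Abcc2 and -0.0098 for Slc51b, and leaving out the Y-linked libraries gave 0.19 for Abcc2, 0.027 for Abcc3 and -0.0018 for Slc51b.

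With 1 library left out, the range crossed 0 for Slc51b (-1.30 to 0.36, 0d over WT), Abcc2 (-0.33 to 0.53, 50d over WT), and Slco1a4 (-0.58 to 0.014) and Abcb11 (-0.074 to 0.29) for 7d over 0d. For 50d over 7d it did so for Slc10a1 (-0.62 to 0.13), Slco1b2 (-0.73 to 0.073), Slc51b (-0.14 to 0.91), Abcc4 (-1.79 to 0.12) and Abcc2 (-0.79 to 0.043). Slco1a4 ranged from -1.11 to 0.64 for Hdac3-/- tumor over adjacent and from -1.50 to 0.31 for Fah-/- tumor over adjacent, where Abcc3 ranged from -0.061 to 0.67. For Fah-/- over Hdac3-/- tumor the ranges were -1.59 to 0.86 for Slco1a4, -0.43 to 0.20 for Abcb11, -0.24 to 0.17 for Abcc2, -0.73 to 0.0069 for Abcc3, -0.075 to 1.01 for Slc51b, -0.29 to 1.64 for Slc10a1 and -1.46 to 0.17 for Slco1b2. Depth limits Slc51a, with 1 count in all, and Slc51b, with 0 to 42 counts per library.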
